A study of Mus musculus with 10 samples.

Results

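Laminins, nidogens, perlecan and agrin are large secreted proteins of the basement membrane, the thin sheet of matrix that lies under epithelia and endothelia and around muscle, fat and Schwann cells. The 10 genes described here were chosen by name, with earlier results of these data known. The set holds the laminin chain genes Lama2, Lama4, Lama5, Lamb1, Lamb2 and Lamc1. It also holds the nidogen genes Nid1 and Nid2, the perlecan gene Hspg2 and the agrin gene Agrn. These genes are 10 of 46095 gene symbols in the RNA-seq count table and lie on 8 chromosomes. Open-chromatin regions within 5 kb of their gene bodies were added, 31 of 29289 regions in all. The RNA came from the mouse line C3H10 T1/2, embryonic cells with fibroblast and mesenchymal properties, for which the labels give the strain C57BL/6. There were 3 libraries from unstretched control cells and 3 from cells under cyclic mechanical strain (CMS). All cells were grown for 48 h on flexible plates coated with collagen type I, and strain then followed a sine wave of 0.5 Hz at 10% elongation for 8 h a day over 3 days. Open chromatin was measured by ATAC-seq, in which the transposase Tn5 inserts sequencing adapters into accessible DNA, in 2 libraries of GFP control cells and 2 of cells in which Piezo1, a mechanically gated ion channel gene, was knocked out with CRISPR/Cas9. The labels name no strain treatment for the ATAC-seq cells and do not say whether the knockout line is a single clone. Whether libraries are separate cultures is not stated, so a p-value here reflects only how these libraries vary, and part of that may be technical.

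A laminin is a trimer of an alpha, a beta and a gamma chain, and many laminins are cross-shaped. The alpha chain carries the main sites for integrins and dystroglycan on the cell surface. In many laminins, though not all, the short arms of the chains join trimers into a network. Nidogens link that network to the type IV collagen network, and perlecan and agrin are proteoglycans whose heparan sulfate chains hold growth factors. Agrin also clusters acetylcholine receptors at the nerve-muscle junction. Fibroblast-like cells usually make these proteins as a contribution to the basement membranes of neighbouring tissues.

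Library totals lay between 36150738 and 41024689 counts. Control replicate 3 and strain replicate 1 stood apart from their groups: the chi-square per degree of freedom of control replicate 3 against the other controls was 37.5 and 59.6, while the other controls differed by 9.19. For strain replicate 1 it was 44.3 and 34.7, against 15.7 between the other strain libraries. Of 11 mesenchymal marker genes 10 passed the filter on low counts, 0 of them higher and 5 lower under strain, with summed levels of 80302 to 88657 CPM (counts relative to library size, scaled by TMM) in controls and 59303 to 70771 CPM in strain libraries. Thy1, a fibroblast surface marker, was at 0.0569 CPM or less in every library. Of 8 endothelial genes 3 passed the filter (summed level 3.07 to 4.04 CPM in controls and 3.96 to 6.398 CPM under strain) and 0 counts of Cdh5, Emcn and Cldn5 in any library. Of 8 epithelial genes 2 passed (8.45 to 9.75 CPM and 3.00 to 4.53 CPM), with Epcam and Cldn4 at 0 counts and Cdh1 lower under strain (log2 fold change −1.91, edgeR adjusted p = 0.00211). Of 8 smooth and skeletal muscle genes 3 passed (2630 to 3358 CPM and 1965 to 2690 CPM), with Myod1, Myog and Ckm at 0 counts, and Smtn was lower (log2 fold change −0.68, edgeR adjusted p = 0.00153). Of 5 Schwann cell genes 3 passed (18.5 to 26.0 CPM and 8.00 to 8.98 CPM), with Sox10 at 0 counts and S100b lower (log2 fold change −1.83, edgeR adjusted p = 2.47e-04). Of 5 macrophage genes 3 passed (8.96 to 11.8 CPM and 19.6 to 23.1 CPM), with Ptprc at 0 counts and Cd14 higher (log2 fold change 1.34, edgeR adjusted p = 3.76e-04). Of these 5 sums only that of the muscle genes exceeded 26.0 CPM in any library, and most of it came from the smooth muscle actin gene Acta2, at 2694 ± 379 CPM in controls and 2297 ± 404 CPM under strain (SD, n = 3 each; edgeR adjusted p = 0.335). The part of these marker changes in the results below was not tested.

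RefSeq promoter windows of 300 bases (250 before and 50 after a start site, build GRCm38.p6, which is mm10) were at hand for 7 of the 10 genes. The 4 shown belong to the laminin beta chain genes, whose count ratio is described below, to the nidogen gene with the largest fold change, and to Agrn, whose start site had peaks on either side of the window. Capitals mark each match to GGGCGG, the core of the GC box bound by SP1-type factors, on either strand, with overlapping matches joined.
Lamb1, chr12:31265043-31265342, plus strand: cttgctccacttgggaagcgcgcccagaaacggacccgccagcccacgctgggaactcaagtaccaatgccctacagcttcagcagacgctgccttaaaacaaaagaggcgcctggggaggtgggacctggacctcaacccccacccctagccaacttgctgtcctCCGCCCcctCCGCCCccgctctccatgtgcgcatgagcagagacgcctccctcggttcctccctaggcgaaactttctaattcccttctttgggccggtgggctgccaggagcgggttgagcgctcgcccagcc
Lamb2, chr9:108479612-108479911, plus strand: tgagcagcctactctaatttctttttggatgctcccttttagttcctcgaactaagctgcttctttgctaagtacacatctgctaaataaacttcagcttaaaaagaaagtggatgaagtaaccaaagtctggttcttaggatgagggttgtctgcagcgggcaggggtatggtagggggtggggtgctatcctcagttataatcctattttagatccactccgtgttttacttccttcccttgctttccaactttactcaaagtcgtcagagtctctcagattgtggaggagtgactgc
Nid1, chr13:13437352-13437651, plus strand: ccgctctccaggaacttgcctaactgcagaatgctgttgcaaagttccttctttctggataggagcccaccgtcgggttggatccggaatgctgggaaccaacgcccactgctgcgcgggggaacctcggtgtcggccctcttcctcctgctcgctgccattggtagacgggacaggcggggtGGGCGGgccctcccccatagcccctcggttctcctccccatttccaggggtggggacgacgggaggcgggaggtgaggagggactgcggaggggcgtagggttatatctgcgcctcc
Agrn, chr4:156197439-156197738, minus strand: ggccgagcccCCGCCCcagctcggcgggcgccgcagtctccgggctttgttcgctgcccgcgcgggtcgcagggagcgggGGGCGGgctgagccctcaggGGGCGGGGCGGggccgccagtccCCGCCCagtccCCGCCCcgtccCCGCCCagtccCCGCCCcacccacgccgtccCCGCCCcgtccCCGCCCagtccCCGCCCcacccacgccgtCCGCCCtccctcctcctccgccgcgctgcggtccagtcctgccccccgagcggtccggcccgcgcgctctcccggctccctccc
The windows differed widely in base composition. The GC content was 44.0% in the Lamb2 window, 63.7% in that of Lamb1, 64.7% in that of Nid1 and 83.3% in that of Agrn, against a median of 52.7% over 32841 such windows. GGGCGG had 12 matches in the Agrn window, 2 in that of Lamb1, 1 in that of Nid1 and 0 in that of Lamb2, and 35.7% of all windows held at least 1 match. CCAAT, the core of the box bound by NF-Y, matched once in the Lamb1 and Nid1 windows each (37.4% of all windows). GGAATG, the core of sites of the TEAD factors that act with YAP and TAZ, had 1 match in the Nid1 window (14.7% of all windows). TATAAA (13.6% of all windows) and TGANTCA, the core of AP-1 sites (7.81%), were in none of the 8 windows of the 7 genes. All of these motifs were searched on both strands. A match is a description of the letters and not a site of binding.

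Strain against control was tested with edgeR's quasi-likelihood test over 15335 genes, and genes with a Benjamini-Hochberg adjusted p under 0.05 are named as called. Values are given below in the order of replicates 1, 2 and 3, and gene spans are those of RefSeq on GRCm38.p6. All 10 genes were among those tested. Lamb1 alone was called, and it was higher under strain, so 1 of 10 rose and 0 fell, beside 13.3% called in either direction over all genes, 5.94% higher and 7.39% lower. The share called is thus near that of all genes. At an unadjusted p under 0.05 the counts were 3 higher (Lamb1, Nid1 and Lama4) and 0 lower, beside 29.6% of all genes in either direction, and DESeq2 called 2 higher (Lamb1 and Nid1) and 0 lower. Fold changes were above 0 on the log2 scale for 5 genes and below 0 for 5. The median was 0.02, the range −0.24 to 0.48, and the median over all tested genes 0.0049. In bulk samples, fewer cells of a type and less RNA per cell cannot be told apart.

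**Figure D1:**
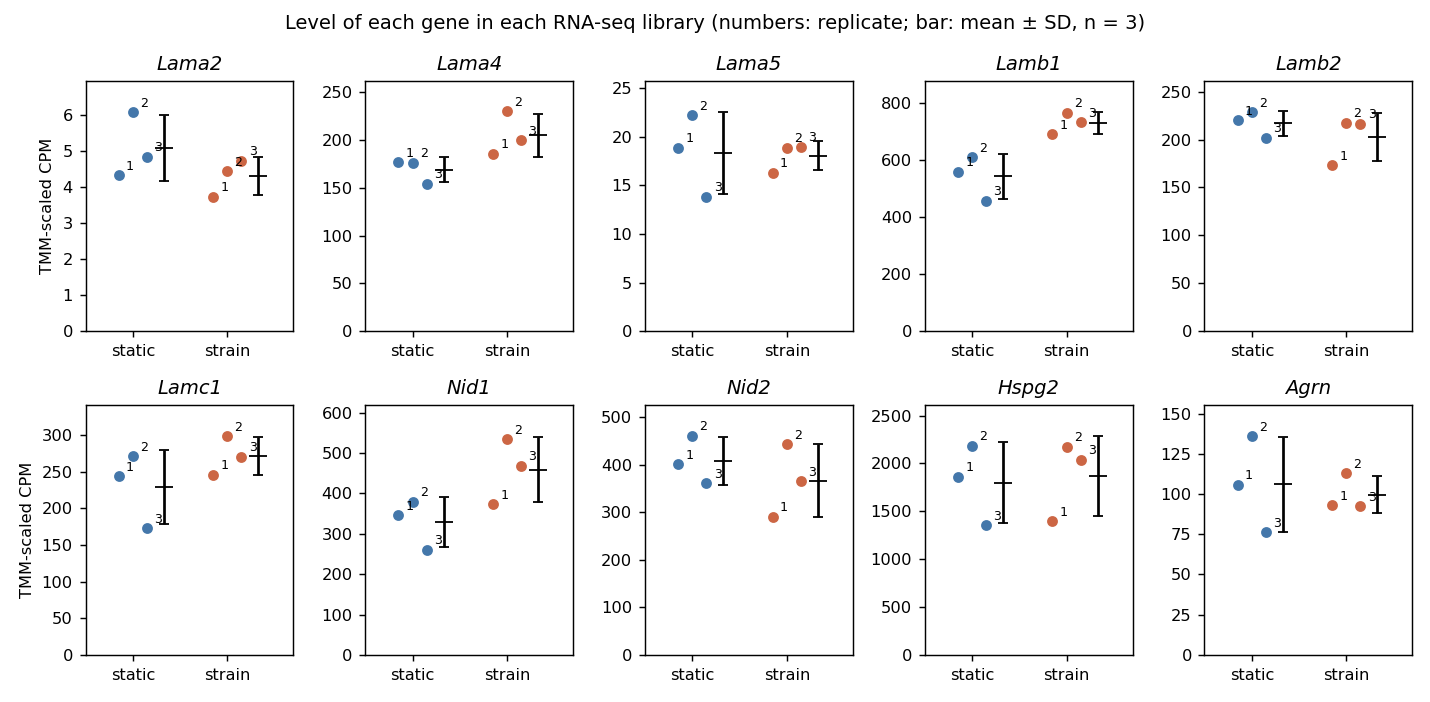
TMM-scaled CPM (vertical axis, from 0, a separate scale for each gene) of the 10 genes in 3 static control libraries (blue) and 3 cyclic strain libraries (orange); numbers give the replicate and black bars the mean ± SD. The groups do not overlap for Lamb1 and Lama4, while control replicate 3 and strain replicate 1 are the low points of their groups for most genes.

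Among the alpha chains, Lama4 (chr10:38965515-39110188), the chain of laminins in vessel walls, fat and mesenchyme, was at 176, 176 and 154 CPM in controls and at 185, 230 and 199 CPM under strain. All 3 strain libraries lay above all 3 controls, as they did for 17.4% of all tested genes. Lamb1 was the other gene with all strain libraries above, and 0 of the 10 had all of them below, beside 17.9% of all tested genes. The difference did not pass the test (log2 fold change 0.28, SE 0.11, edgeR adjusted p = 0.124; 95% interval 0.03 to 0.52). Lama5 (chr2:180176373-180225904), the broadly used chain of mature epithelial and vessel basement membranes, was at 18.8, 22.2 and 13.8 CPM in controls and 16.3, 18.9 and 19.0 CPM under strain. Its groups overlapped, with the spread of the controls enclosing the strain values (log2 fold change −0.02, SE 0.17, edgeR adjusted p = 0.952). The 95% interval of the fold change ran from 0.763 to 1.27. Lama2 (chr10:26981285-27617191), the alpha chain of muscle and Schwann cell basement membranes whose loss causes a congenital muscular dystrophy, was at 4.31, 6.07 and 4.84 CPM in controls and 3.72, 4.44 and 4.73 CPM under strain, from 155 to 216 counts a library. These groups overlapped as well (log2 fold change −0.24, SE 0.19, edgeR adjusted p = 0.439; 95% interval −0.67 to 0.19).

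Lamb1 (chr12:31265146-31329644), the beta chain that pairs with most alpha chains from early development on, was at 558, 610 and 458 CPM in controls and 689, 766 and 732 CPM under strain. Every strain library was above every control. Its mean was 542 ± 77.5 CPM in controls and 729 ± 38.2 CPM under strain (SD, n = 3 each), a 1.34-fold rise (log2 fold change 0.43, SE 0.12, edgeR adjusted p = 0.0418; 95% interval 0.16 to 0.69). Leaving out 1 library ended the call in 5 of 6 cases: control replicate 1 (edgeR adjusted p = 0.121), control replicate 3 (0.0635), strain replicate 1 (0.0542), strain replicate 2 (0.141) and strain replicate 3 (0.124). It held without control replicate 2 (0.0242). The log2 fold change lay between 0.32 and 0.52 in these fits. Lamb2 (chr9:108479847-108490530), the beta chain of the kidney filter and the nerve-muscle junction, was at 220, 228 and 202 CPM in controls and 173, 217 and 216 CPM under strain. The groups overlapped, with strain replicate 1 the lowest library (log2 fold change −0.10, SE 0.11, edgeR adjusted p = 0.60; 95% interval −0.35 to 0.15). Lamc1 (chr1:153218922-153332786), the gamma chain shared by most laminins, was at 243, 271 and 173 CPM in controls and 245, 298 and 270 CPM under strain. Control replicate 3 lay well below the other libraries, which overlapped (log2 fold change 0.24, SE 0.16, edgeR adjusted p = 0.323; 95% interval −0.10 to 0.59).

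Nid1 (chr13:13437602-13512275), a nidogen gene, was at 346, 380 and 260 CPM in controls and 373, 534 and 469 CPM under strain. Strain replicate 1 lay just below control replicate 2, and strain replicates 2 and 3 lay above every control. Nid1 had the largest fold change of the 10 genes and did not pass the test (log2 fold change 0.48, SE 0.16, edgeR adjusted p = 0.0754; 95% interval 0.12 to 0.84). It did pass with DESeq2 (adjusted p = 0.0295), without a filter on low counts (edgeR adjusted p = 0.00276), without control replicate 2 (0.0384) and without strain replicate 1 (0.0434). It did not pass with library size alone as the scaling (0.0543), nor with control replicate 1 (0.152), control replicate 3 (0.164), strain replicate 2 (0.256) or strain replicate 3 (0.189) left out. Nid2 (chr14:19751257-19811787), the other nidogen, was at 401, 461 and 361 CPM in controls and 291, 444 and 365 CPM under strain. Strain replicate 1 was its lowest library and the groups overlapped (log2 fold change −0.15, SE 0.15, edgeR adjusted p = 0.540; 95% interval −0.49 to 0.19). The protein-coding gene Rtraf overlaps the Nid2 gene body in RefSeq and had a mean of 4928 counts against 14700.5 for Nid2, and reads of the shared stretch could be split or lost between them, since the strand setting of the counting is not known.

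Hspg2 (chr4:137468751-137570630), which encodes perlecan, was at 1862, 2188 and 1353 CPM in controls and 1398, 2175 and 2041 CPM under strain. Each group held a low library at a like level, and the other libraries of both groups overlapped. Its log2 fold change was near 0 with a wide interval (0.06, SE 0.20, edgeR adjusted p = 0.877, 95% interval −0.38 to 0.49). The sign turned once control replicate 3 (−0.11), strain replicate 2 (−0.07) or strain replicate 3 (−0.02) was left out. Agrn (chr4:156165290-156197533) was at 106, 136 and 76.4 CPM in controls and 93.1, 113 and 92.5 CPM under strain. All strain values lay within the range of the controls (log2 fold change −0.09, SE 0.18, edgeR adjusted p = 0.774; 95% interval −0.49 to 0.31).

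**Figure D2:**
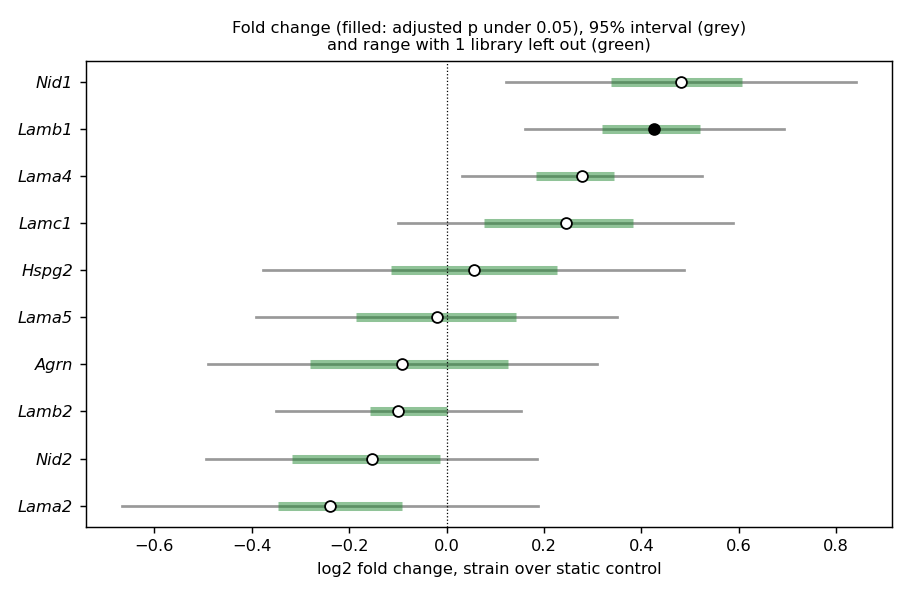
Log2 fold change of strain over static control (horizontal axis) for the 10 genes, with its 95% interval (grey line) and its range when each of the 6 libraries is left out in turn (green bar); the filled point passed an adjusted p of 0.05 and open points did not. Only Lamb1 is filled, at 0.43, and the intervals of Lamb1, Nid1 and Lama4 lie above 0.

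The 10 genes shared a pattern across libraries that the groups do not account for. Control replicate 3 was the lowest control for 9 of the 10 genes, Lama2 being the exception, and strain replicate 1 was the lowest strain library for 9, Agrn being the exception. Both held at once for 8 genes. Over all tested genes control replicate 3 was the lowest control for 41.2%, strain replicate 1 the lowest strain library for 37.6%, and both for 17.7%. The pattern was not particular to the 10 genes, since the listed genes Dag1, Lrp4, Utrn and Fn1 had the same low libraries. Control replicate 3 was instead the highest control for others, among them Timp1, Vim and S100a4. The highest control was replicate 2 for 9 genes and the highest strain library was replicate 2 for 8. Summed over the 10 genes, levels were 3935, 4478 and 3055 CPM in controls and 3469, 4800 and 4409 CPM under strain, so the low libraries of both groups lay below all others. The spread within groups was accordingly wide, with a coefficient of variation of up to 28.0% in controls (Agrn) and 22.2% under strain (Hspg2). Without these 2 libraries, a choice made after seeing the data, edgeR called 3 genes higher, Lamb1 (log2 fold change 0.36, adjusted p = 0.00960), Nid1 (0.46, adjusted p = 0.00394) and Lama4 (0.28, adjusted p = 0.0422), and 0 lower, while its calls over all genes went from 911 higher and 1134 lower to 1512 and 1614. What sets these libraries apart was not tested.

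**Figure D3:**
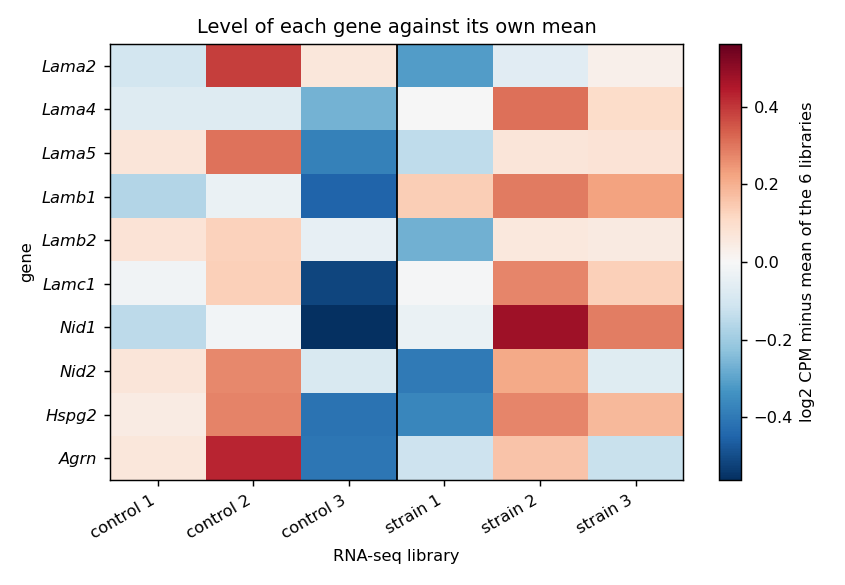
Log2 CPM of each of the 10 genes (rows) in each of the 6 RNA-seq libraries (columns, controls left of the line) minus the gene's mean over the 6 libraries; red is above and blue below that mean. Control replicate 3 is blue in 9 of 10 rows, and within the strain libraries replicate 1 is the lowest in 9 of 10 rows.

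Ratios of 2 genes' counts within a library cancel whatever scales both genes alike, library size included. Gene length cancels in their difference between groups only if it acts alike in every library, which was not tested. The ratio of Lamb1 to Lamb2 counts was 2.54, 2.68 and 2.27 in controls and 3.98, 3.52 and 3.38 under strain. The groups were separate, and the ratio was 1.45-fold higher under strain (log2 difference 0.54, with SDs of 0.12 in both groups; exact two-sided permutation p = 0.1, n = 3 each, the smallest value that 3 against 3 can give). The ratio of Nid1 to Nid2 counts was 0.864, 0.823 and 0.721 in controls and 1.28, 1.20 and 1.29 under strain. The groups were separate here too, and the ratio was 1.57-fold higher (log2 difference 0.65; SDs 0.14 and 0.05; exact permutation p = 0.1, n = 3 each), and this pair was added after the values were seen. Control replicate 3, low in the counts of single genes, was also the lowest control in both ratios, while strain replicate 1 had the highest ratio of Lamb1 to Lamb2.

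Of all 45 pairs among the 10 genes, 23 had ratios that did not overlap between groups, each at the smallest possible exact permutation p of 0.1 (n = 3 each; 0.196 after Benjamini-Hochberg adjustment over the 45 pairs). Over all pairs of the 15271 tested genes with counts in every library, 34.6% had such ratios. The 45 pairs reuse the same 10 genes and are not independent, so nothing is read from the higher share. Nid1 and Lamc1 each took part in 7 such pairs of 9, and Lamb1 in 6. For Nid1 to Lamb1 the ratio overlapped (log2 difference of Lamb1 over Nid1 −0.05; exact permutation p = 0.8, n = 3 each), so the counts of the 2 genes with the largest fold changes kept their proportion within the spread. Among the alpha chains, Lama4 over Lama2 was higher in every strain library (log2 difference 0.51; exact permutation p = 0.1, n = 3 each). Lama4 over Lama5 overlapped, at 9.36, 7.93 and 11.2 in controls and 11.4, 12.2 and 10.5 under strain (log2 difference 0.27; exact permutation p = 0.2, n = 3 each). Lama2 over Lama5 overlapped as well (log2 difference −0.24; exact permutation p = 0.3, n = 3 each), as did Lamb1 over Lamc1, the beta and gamma chains of the same trimers (log2 difference 0.17; exact permutation p = 0.2, n = 3 each). The levels of different genes are not compared here, since no transcript lengths were at hand.

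**Figure D4:**
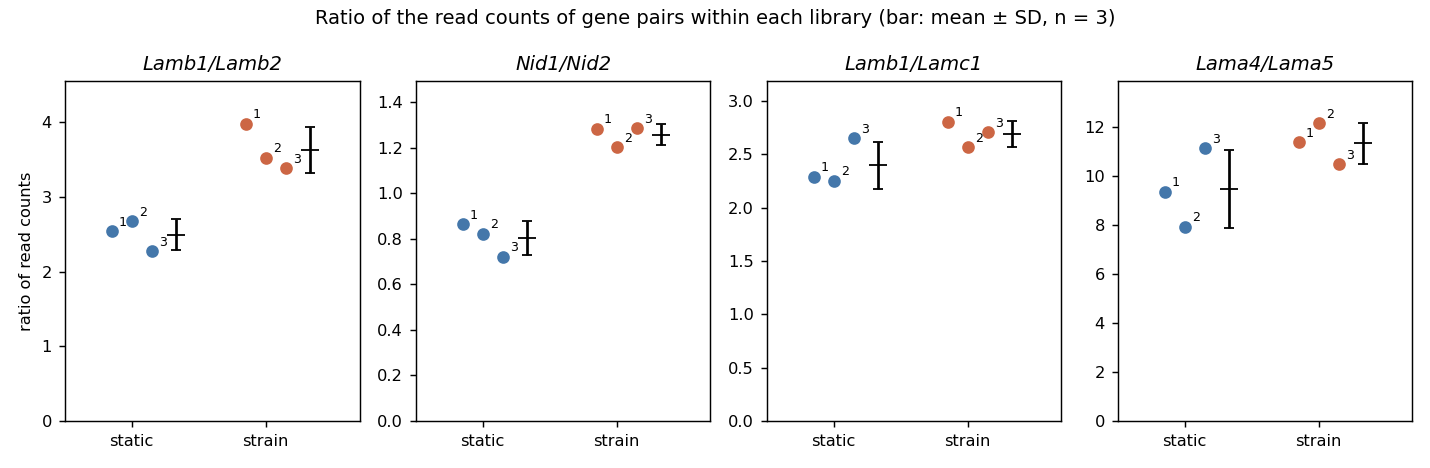
Ratio of read counts of 4 gene pairs within each library (vertical axis, from 0) in 3 static control (blue) and 3 strain (orange) libraries, with the replicate number beside each point and the mean ± SD as black bars. Lamb1/Lamb2 and Nid1/Nid2 are separate between groups, at 2.27 to 2.68 against 3.38 to 3.98 and at 0.721 to 0.864 against 1.20 to 1.29, while Lamb1/Lamc1 and Lama4/Lama5 overlap.

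Among other laminin chain genes, Lama1, the alpha chain of the early embryo, was at 76.1 ± 16.2 CPM in controls and 67.7 ± 4.21 CPM under strain (SD, n = 3; edgeR adjusted p = 0.482), and it did not pass the test. Lama3, Lamb3 and Lamc3 were at 0.485 CPM or less in every library.

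Over all tested genes 5.94% were called higher and 7.39% lower, which are the shares to set beside each list below. Among the collagens of the basement membrane, 3 of 5 tested genes fell and 0 rose, and the list's median was −0.41 on the log2 scale. Lower collagen counts were not particular to this list. The collagen genes among the mesenchymal markers, Col1a1, Col1a2 and Col3a1, were also called lower. Their log2 fold changes were −0.70, −0.55 and −0.92 (edgeR adjusted p = 0.00236, 0.00734 and 7.71e-04). Col15a1, a collagen at the outer face of basement membranes, was at 308, 318 and 260 CPM in controls and 110, 135 and 116 CPM under strain (log2 fold change −1.30, SE 0.12, edgeR adjusted p = 1.13e-04). Col4a5 fell from 53.9 to 36.0 CPM (edgeR adjusted p = 0.0317) and Col18a1, the source of endostatin, from 39.7 to 29.9 CPM (edgeR adjusted p = 0.0260). Leaving out control replicate 1, control replicate 2 or strain replicate 3 ended both calls, that of Col4a5 also without strain replicate 1 and that of Col18a1 without strain replicate 2 (adjusted p up to 0.120 and 0.130). Col4a1 and Col4a2, the chains of the common type IV collagen network that nidogens tie to laminin, were at 589 ± 52.4 and 573 ± 51.4 CPM in controls and 477 ± 27.6 and 466 ± 14.0 CPM under strain (SD, n = 3). Each had a log2 fold change of −0.30 and did not pass (edgeR adjusted p = 0.0805 and 0.0794). With DESeq2 and without control replicate 3 all 5 tested collagens were called lower, these 2 included, and without control replicate 1, control replicate 2 or strain replicate 3 the count was 1.

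Of 17 other tested basement membrane proteins 5 fell and 0 rose, with a median of −0.31. Npnt, which encodes nephronectin, a ligand of integrin alpha 8 beta 1, fell from 244 ± 36.2 to 103 ± 25.7 CPM (SD, n = 3 each; log2 fold change −1.25, edgeR adjusted p = 0.00159). Sparc, a collagen-binding glycoprotein gene, fell from 6565 to 4036 CPM (−0.70), Smoc1 from 6.31 to 2.43 CPM (−1.37) and Papln from 1.84 to 0.564 CPM (−1.71). Papln no longer passed once control replicate 1 or strain replicate 3 was left out (edgeR adjusted p up to 0.0609). The fifth, the fibulin gene Fbln1, fell from 319 to 252 CPM (−0.34, edgeR adjusted p = 0.0369). It was named after its values were seen to complete the count, and its call was lost without any library other than control replicate 3 (adjusted p up to 0.124). Of 19 tested crosslinking enzymes, proteases and inhibitors 1 rose and 4 fell (median 0.08). The one that rose was Mmp3, a stromelysin that cleaves laminin, nidogen and perlecan, from 45.8 ± 5.10 to 144 ± 12.9 CPM (SD, n = 3 each; log2 fold change 1.66, edgeR adjusted p = 2.20e-05). The 4 that fell were the gelatinase gene Mmp9 (−1.73), the lysyl oxidase gene Loxl2 (−0.61), the aggrecanase gene Adamts5 (−0.60) and the serine protease gene Htra1 (−0.53). Mmp9 was at a low level, 3.47 ± 0.780 CPM in controls and 1.04 ± 0.191 CPM under strain (SD, n = 3 each). Leaving out strain replicate 2 or 3 ended the Htra1 call (edgeR adjusted p up to 0.0539).

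Of 16 tested receptors of laminins, perlecan and agrin 1 rose and 2 fell, with a median log2 fold change of −0.0016. Gpc1, a heparan sulfate proteoglycan of the cell surface, rose from 814 ± 48.4 to 1097 ± 44.8 CPM (SD, n = 3 each; log2 fold change 0.43, edgeR adjusted p = 0.0180), and Sdc4, another, fell from 333 to 262 CPM (−0.35, edgeR adjusted p = 0.0455). Itga7, the laminin-binding integrin chain of muscle, fell from 8.53 ± 0.449 to 5.14 ± 0.716 CPM (−0.73, edgeR adjusted p = 0.0139). Leaving out control replicate 1, strain replicate 2 or strain replicate 3 ended the Gpc1 call (edgeR adjusted p up to 0.0885), and leaving out any library but control replicate 2 ended that of Sdc4 (up to 0.169), as did scaling by library size alone (0.0705). Dystroglycan, from Dag1, was at 290 ± 45.8 CPM in controls and 291 ± 49.5 CPM under strain, and Lrp4, the agrin receptor, at 98.9 ± 23.3 and 98.4 ± 16.9 CPM (SD, n = 3 each). Musk, the kinase that signals with Lrp4 in muscle, had no counts in controls and at most 0.0535 CPM under strain. Itga6 and Itgb1, which together form a laminin receptor, were at 14.9 and 822 CPM in controls and 19.2 and 936 CPM under strain, and neither passed (edgeR adjusted p = 0.0815 and 0.280).

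Of 22 tested genes of the dystroglycan complex and its sugar-adding enzymes 2 rose and 1 fell (median 0.09), a share near the 13.3% of all genes. The syntrophin gene Sntb1 rose from 2.16 to 5.84 CPM (log2 fold change 1.43) and the dystrobrevin gene Dtna from 19.5 to 29.5 CPM (0.60), while the sarcoglycan gene Sgcd fell from 40.4 to 25.1 CPM (−0.69). Leaving out control replicate 3, strain replicate 2 or strain replicate 3 ended the Sntb1 and Dtna calls, that of Sntb1 also without control replicate 1 (edgeR adjusted p up to 0.0695 and 0.116). Of 22 tested genes that make or edit heparan sulfate, the sugar carried by perlecan and agrin, 2 rose and 2 fell (median 0.10). The sulfotransferase gene Hs3st1 rose from 13.3 ± 1.19 to 24.4 ± 4.48 CPM (SD, n = 3 each; log2 fold change 0.87, edgeR adjusted p = 0.00474) and the chain-building gene Ext1 from 110 to 140 CPM (0.35, edgeR adjusted p = 0.0428). Xylt2, which starts the chains, fell from 54.7 to 40.8 CPM (−0.42), and Hpse, the heparanase that cuts them, from 15.7 to 10.4 CPM (−0.59). Ext1, Xylt2 and Hpse no longer passed once control replicate 1, strain replicate 2 or strain replicate 3 was left out, Ext1 also without control replicate 2 (edgeR adjusted p up to 0.168, 0.0843 and 0.0768). Over all 7 lists 6 of 103 tested genes rose and 17 fell, 22.3% together, beside 13.3% of all genes (5.94% higher and 7.39% lower). The lists were chosen with earlier results of these data known. The counts were 3 and 10 without control replicate 1, 11 and 15 without control replicate 2, 2 and 11 without strain replicate 2, and 3 and 9 without strain replicate 3.

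In the ATAC-seq peak lists, which hold 15978 and 26652 peaks in GFP control replicates 1 and 2 and 15980 and 13610 in Piezo1 knockout replicates 1 and 2, overlapping peaks were merged into regions. Of the 31 regions near the 10 genes, 5 were present in all 4 libraries, which is 16.1% beside 26.4% of all regions. A further 5 were in both controls and neither knockout library, 16.1% beside 10.6% of all regions, and 1 was in both knockout libraries and neither control, 3.23% beside 1.57%. GFP control replicate 2, the library with the most peaks, held 24 of the 31 regions, the other control 14 and the knockout libraries 12 and 9. When a library was left out the peaks were merged anew, which can split a region. Without GFP control replicate 2 the regions present in the remaining control and in neither knockout library numbered 8, without GFP control replicate 1 they numbered 15, and without knockout replicate 1 there were 9. With 2 libraries a group and no read counts, no test was made, and a peak missing from a list is not evidence that the site was closed, since the depth of the libraries is unknown.

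Lamb1 and Nid1, the genes with the largest fold changes under strain, had 0 regions within 5 kb in any of the 4 libraries, and no peak touched the promoter windows printed for them. The regions present in all 4 libraries lay at Nid2, Lamc1, Lamb2, Lama4 and Lama5. At Nid2 the region chr14:19750819-19751602 covered the lower-numbered end of the gene body, with the authors' fold enrichment over local background at 5.57, 7.08, 6.23 and 4.59 in control replicates 1 and 2 and knockout replicates 1 and 2. At Lamc1 the region chr1:153332369-153333156 covered the higher-numbered end, at 5.20, 5.25, 4.73 and 4.80. The strand of Nid2 and Lamc1 is not in the tables used here. At Lamb2 the region chr9:108490358-108491025 covered the far end of the gene and lay within 5 kb of Usp19 (4.72, 5.73, 5.56 and 3.90), while the start of Lamb2 had a region in knockout replicate 1 only (chr9:108479888-108480172, 5.22), which covers the last bases of the Lamb2 window printed above. The shared region of Lama4, chr10:38994393-38995208, lay inside the gene body (6.25, 6.28, 6.01 and 5.28), and that of Lama5, chr2:180171092-180171873, lay 4.5 kb past the far end and within 5 kb of Adrm1.

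All 5 regions seen in both controls and neither knockout library lay inside gene bodies, 3 in Lama4 and 2 in Hspg2. In Lama4 they were chr10:38980936-38981535 (fold enrichment 4.84 and 5.32 in control replicates 1 and 2), chr10:38984553-38985120 (4.93 and 4.57) and chr10:39044850-39045169 (3.86 and 6.66). In Hspg2 they were chr4:137476555-137476925 (3.40 and 4.19) and chr4:137488747-137489517 (5.30 and 5.31), which lay 7804 and 19996 bases inside the gene from its start. The region seen only in both knockout libraries, chr2:180217558-180217801, lay 8103 bases inside Lama5 from its start (3.57 and 3.50 in knockout replicates 1 and 2), and it was lost when peaks needed a −log10 q of at least 5. The region chr1:153300231-153300825 inside Lamc1 had peaks in GFP control replicates 1 and 2 and knockout replicate 1 (5.29, 8.01 and 4.07 in their own lists) and none in knockout replicate 2. The 3 regions of Agrn, each in 1 library, lay within 1 kb of the gene's start and within 5 kb of its neighbour Isg15, 1 of them inside the gene (GFP control replicate 2) and 2 before it (knockout replicates 1 and 2). Of the 3 regions of Lama2, all inside the gene body, 1 was in 3 libraries (chr10:27063874-27064207) and 2 were in GFP control replicate 2 only, and the closest to the gene's start was 367123 bases away.

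**Figure D5:**
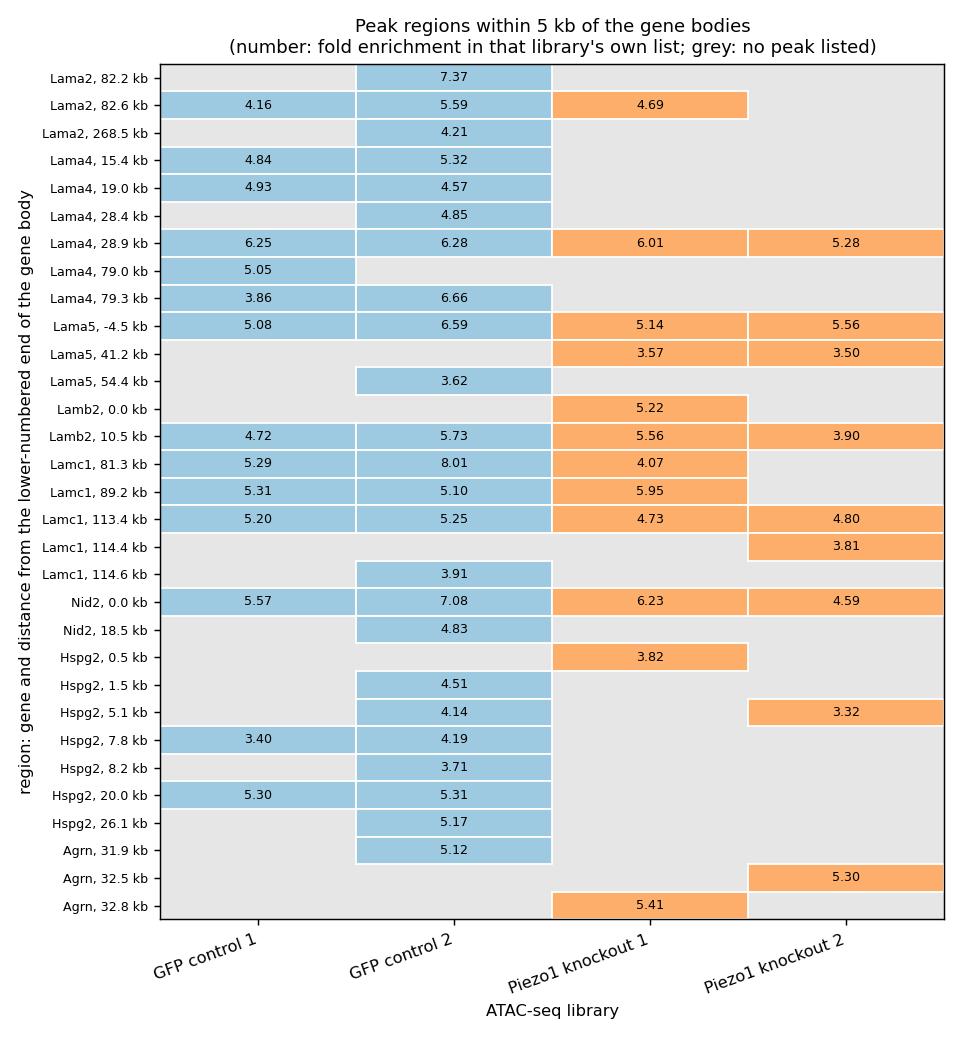
The 31 merged peak regions within 5 kb of the gene bodies (rows, by gene and distance in kb from the lower-numbered end of the gene body, negative when outside it) in the 4 ATAC-seq libraries (columns); the number is the authors' fold enrichment of the highest peak in that library's own list, blue and orange mark control and knockout lists, and grey means that no peak was listed. Rows filled in all 4 columns number 5, and no row belongs to Lamb1 or Nid1.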

How the data were processed

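Raw read counts by gene symbol for 6 RNA-seq libraries were deposited by the authors in 1 table. STAR, HTSeq, DESeq2 and Trim Galore 0.6.5 are named with mm10 per the submitters' processing notes; for STAR and HTSeq the version, and for counting the annotation and strand setting, were not given in the sources used here. The labels' protocols describe amplification of the cDNA and name no molecular identifiers, so reads need not be independent molecules. Each ATAC-seq library has its own peak list from the authors, made with Bowtie2 2.4.2 and MACS2 per the submitters' processing notes, with a fold enrichment (a ratio to local background), −log10 p and −log10 q values, a score and a summit for each peak in the deposited lists. These values describe single peaks and were not compared between lists as a change.

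Counts were fitted with edgeR 4.0.16 in R 4.3.3 (TMM scaling, filterByExpr, glmQLFit, glmQLFTest, two-sided) over 15335 genes. Standard errors were derived from each log2 fold change and its F statistic, and 95% intervals from these with the test's degrees of freedom. The test was run on counts simulated from these libraries for strain against control (15116 genes). It found 16.4% of the 67 genes given a log2 change of 0.5, 83.6% of the 67 given 1 and 100% of the 66 given 2, with 6.34% false calls. The changed genes were drawn from those above a minimum mean count, and each gene was simulated independently of the others. Low levels shared by many genes within a library were therefore not simulated, and the shares found may not hold for the members. Peaks were merged with bedtools 2.31.1 (at least 1 bp shared).

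The reference tables held gene spans but no transcript or coding lengths. The planned shares of laminin chains per length were therefore replaced by count ratios within a library, compared by an exact permutation test, and the planned removal of a length trend was not run. The 10 genes and the lists were chosen with earlier results of these data known. Named from each list were up to 4 called genes with the largest fold change in each direction, plus receptors and chains that bind a member. Values of 1 listed gene are not reported here. Alternatives were library-size scaling, DESeq2 1.42.0, no filter, a replicate block, leaving out libraries, and other peak windows and thresholds.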

Additional observations from a re-analysis of the deposited data

How the results depend on the processing

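Scaling by library size without TMM gave 1169 higher and 935 lower genes, 55.6% higher against 44.5% with TMM, and Lama5 turned to 0.026 on the log2 scale, while Lamb1 remained the only member called. Without a filter on low counts 1428 genes were higher and 1574 lower, and with DESeq2 1291 and 1491. Members called higher numbered 2 (Lamb1 and Nid1) with DESeq2, without the filter and with the replicate block, and 3 without control replicate 3 and strain replicate 1, a setting added after seeing the data that also gave 1512 higher and 1614 lower genes in all and 15 higher and 22 lower listed pathway genes. With 1 library left out, members called higher ranged from 0 to 2, all genes from 369 to 1085 higher and 577 to 1244 lower, and listed pathway genes from 2 to 11 higher and 9 to 18 lower. No setting called a member lower. Counts per list moved by over 1.5 times for collagens lower (3, and 5 with DESeq2, the block or both libraries left out), receptors lower (2, with 1 by library size and 4 without the filter), receptors higher (1, with 3 without both libraries), dystroglycan genes higher (2, with 4 without the filter and 5 with the block), heparan sulfate genes higher (2, with 4 by library size or DESeq2 and 5 with the block or without both libraries), and, without both libraries, other basement membrane proteins higher (0 to 2), enzymes and proteases higher (1 to 3) and other laminin chains lower (0 to 1). Fold changes that changed sign belonged to Lama5 (−0.19 to 0.14 with 1 library left out, 0.00053 without control replicate 1, 0.05 without strain replicate 1), Hspg2 (−0.11 without control replicate 3, −0.07 without strain replicate 2 and −0.02 without strain replicate 3, up to 0.23) and Agrn (0.13 without control replicate 2, down to −0.28), and none of these genes was called in any setting. The ratios Lamb1/Lamb2, Nid1/Nid2, Lama4/Lama2, Lama4/Lama5 and Lama2/Lama5 were recomputed only with libraries left out, since scaling cancels in them, and kept their sign there.

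The replicate numbers are shared by the groups, but the labels do not say that they pair cultures, and the correlations of same-numbered deviations from the group means were 0.03, 0.21 and 0.09, so they were not taken as pairs. Each control, and strain replicates 2 and 3, correlated best with the library of its own number in the other group, which is a hint from the data and not from the design, while strain replicate 1 correlated best with control replicate 3. The fit with the replicate block gave 1557 higher and 1619 lower genes, with 12 pathway genes higher and 23 lower. Members called higher numbered 2, Lamb1 and Nid1 (edgeR adjusted p for Nid1 0.0260 in place of 0.0754). The log2 fold change of Lama5 was 2.6e-05 in this fit, and Lama5 was not called.

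For peaks, requiring cover of 50% of a region left 3 regions in all libraries. At a −log10 q of at least 5 there were 0 knockout-only regions. With 1 ATAC-seq library left out, regions in all remaining libraries ranged from 5 to 8, control-only regions from 5 to 15 and knockout-only regions from 1 to 4. The removal of a length trend, alone and with the replicate block, was not run, for want of transcript lengths. Peak lists give no read depth, which limits every statement on missing peaks.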
